A study of Mus musculus with 8 samples.

Results

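The transcripts of 9 genes linked to the antioxidant factor NRF2 were examined in NMuMG, an epithelial cell line derived from the mammary gland of the mouse. They were *Nfe2l2*, which encodes NRF2 itself, and *Sqstm1*, *Gclc*, *Gclm*, *Slc7a11*, *Srxn1*, *Txnrd1*, *Hmox1* and *Nqo1*. They were picked by symbol from the 37310 genes of a table of read counts, and each symbol matched a single gene. Of these 9 genes, 8 passed the filter on low counts and were tested, while *Nqo1* did not pass it.

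NRF2 is a transcription factor whose amount is set largely through its breakdown. In unstressed cells KEAP1 binds NRF2 and hands it to a ubiquitin ligase built on CUL3, and when oxidants or electrophiles modify KEAP1, NRF2 escapes, pairs with a small MAF protein and binds antioxidant response elements near its target genes, where the repressor BACH1 competes for the same sites. The targets supply glutathione, thioredoxin and heme breakdown, and in epithelial cells this set is known as a main defence against oxidative and chemical stress.

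In the study, a lncRNA that TGF-β induces early in the epithelial-to-mesenchymal transition, *Lnc-Nr6a1*, was removed by CRISPR-Cas9, with a deletion that took in its promoter and first exon, in clones grown from single cells. The 4 conditions were control cells and knockout cells of the NMuMG line, either untreated or given 10 ng/ml TGF-β1 for 2 h, with 2 libraries in each, which the study calls biological replicates. A clone can differ from its parent line in more than the deletion, and these libraries cannot tell such differences from its effect. Reads were counted to totals of 7871090 and 7800602 in untreated control cells, 11210495 and 9895118 in control cells with TGF-β, and, under the knockout label, 4297832 and 7181737 without and 12761749 and 13574397 with TGF-β. Levels are given as CPM, that is, counts relative to library size after TMM scaling. The smallest level taken as measurable, 3 counts, lay between 0.238 CPM in the deepest library and 0.661 CPM in the shallowest, and these limits cover counting error only.

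The targeted gene was examined first. *Lnc-Nr6a1*, annotated as *Gm13507*, had 3 and 14 counts in untreated control cells and 25 and 35 in control cells with TGF-β. It had 11 and 7 counts in the untreated libraries labelled knockout and was at 0 in both libraries labelled knockout with TGF-β. In this gene genotypes were thus apart in the treated libraries but overlapped in the untreated ones, so the libraries are called by their label throughout, and every direction between untreated genotypes rests on that label. *Gm13507* lies inside *Nr6a1* on the opposite strand, and whether strand was used in the counting is not given in the sources used here.

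Of 7 markers of mammary epithelium, 4 or 5 had more than 3 counts in each library. Their summed level ranged from 4860 to 10010 CPM, with the keratin gene *Krt18* the most abundant on average and *Krt8* above it in 2 libraries labelled knockout, while *Cldn3* was at 0 in all 8 libraries and *Epcam* at 0 in 7 of them. Markers of leukocytes summed to between 2.23 and 5.45 CPM, most of it *Cd68*, with the macrophage marker *Emr1* at 0 in every library. Markers of endothelium summed to at most 0.847 CPM and those of adipocytes to at most 0.221 CPM. Of 6 mesenchymal and fibroblast markers, *Thy1* was at 0 in all 8 libraries. *Col1a2*, *Pdgfra* and *Pdgfrb* had group means of at most 0.40, 0.70 and 0.30 CPM, lower under the knockout label in both treatments. The group means of *Col1a1* were at most 3.75 CPM and higher under that label. The intermediate filament gene *Vim*, on the same list, was abundant, with 2526 to 3769 CPM, and was higher in all 4 libraries labelled knockout than in the 4 control libraries. It therefore ran with the genotype label in both treatments, as did the median of the genes on chromosome 3, which between genotypes was -0.35 in log2 without and -0.34 with TGF-β. In these bulk counts, fewer cells of a kind and less RNA per cell cannot be told apart.

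**Figure D1:**
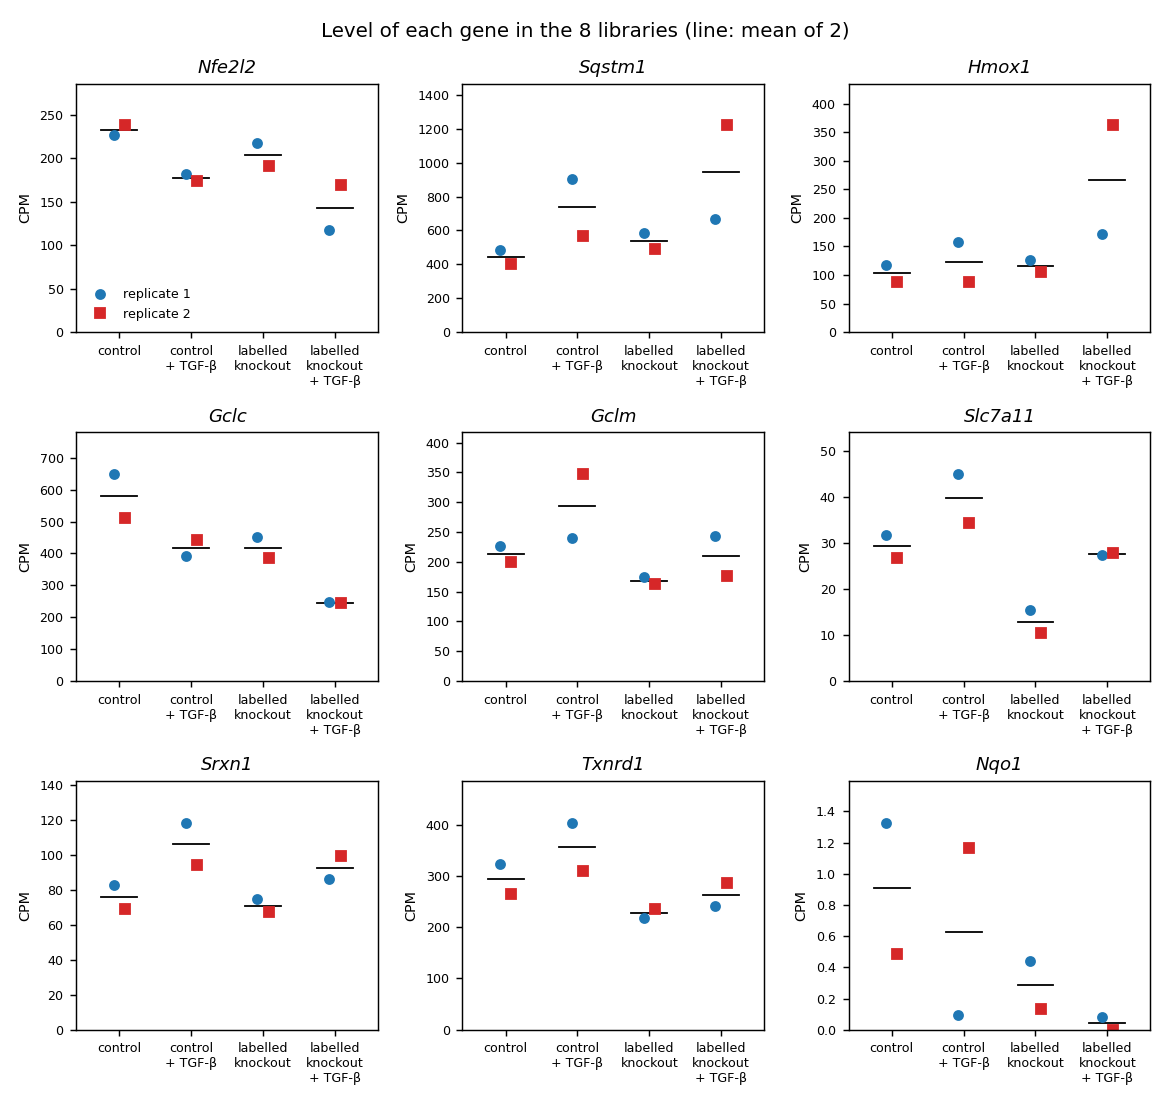
Level in CPM (linear axes from 0, 1 panel per gene) of the 9 genes in each library, with circles for replicate 1, squares for replicate 2 and a line at the mean of each group. *Gclc* is highest in untreated control cells and lowest in the libraries labelled knockout with TGF-β, *Slc7a11* is lowest in the untreated libraries labelled knockout, and *Hmox1* and *Sqstm1* peak in replicate 2 of the libraries labelled knockout with TGF-β at 363 and 1222 CPM.

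Between genes, levels were compared per kilobase of merged exons. In untreated control cells the order of the mean levels was *Gclc* with 170 ± 28.5 CPM per kilobase (SD, n = 2), *Sqstm1* with 132 ± 17.7, *Txnrd1* with 73.1 ± 10.4, *Nfe2l2* with 61.2 ± 2.10, *Hmox1* with 47.5 ± 9.53, *Gclm* with 41.4 ± 3.61 and *Srxn1* with 26.9 ± 3.43. *Slc7a11* followed far below with 2.61 ± 0.306 CPM per kilobase, and *Nqo1* was at 0.584 ± 0.382. The libraries of *Hmox1* and *Gclm* overlapped in this order, whereas no other neighbours did. In the libraries labelled knockout with TGF-β the order was different at its head, with *Sqstm1* at 281 ± 117 and *Hmox1* at 124 ± 62.6 CPM per kilobase (SD, n = 2), ahead of *Gclc* at 71.7 ± 0.236 and *Txnrd1* at 65.5 ± 7.72. There *Sqstm1* stood above *Hmox1*, *Hmox1* above *Gclc* and *Gclc* above *Txnrd1*, without overlap between their libraries. The steps in the mean from *Hmox1* to *Gclc* and from *Gclc* to *Txnrd1* were nevertheless smaller than the SD of *Hmox1*.

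*Nfe2l2* (chr2:75513570-75542698, minus strand, NCBIM37) was measured at 227 and 238 CPM in untreated control cells, 182 and 173 CPM in control cells with TGF-β and, under the knockout label, 217 and 191 CPM without and 117 and 169 CPM with TGF-β. No groups overlapped: the untreated control libraries were the highest and the treated libraries labelled knockout the lowest, although the lowest groups were separated by a few CPM only. *Sqstm1* (chr11:50012868-50024329, minus strand) encodes a receptor for selective autophagy that binds KEAP1 and carries it to degradation, so that it is both a target and an activator of NRF2. Its level was 485 and 402 CPM in untreated control cells, 904 and 568 CPM in control cells with TGF-β and, under the knockout label, 582 and 490 CPM without and 667 and 1222 CPM with TGF-β. Within each genotype both treated libraries were above both untreated ones, but the replicates of the treated groups were far apart. *Sqstm1* shares 750 bases of its span with *3010026O09Rik* on the other strand, which had 14 to 43 counts per library.

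The glutathione genes followed different courses. *Gclc* (chr9:77602342-77642292, plus strand) encodes the catalytic subunit of glutamate-cysteine ligase, the enzyme of the rate-limiting step in glutathione synthesis. It was at 650 and 512 CPM in untreated control cells, 392 and 441 CPM in control cells with TGF-β and, under the knockout label, 453 and 384 CPM without and 246 and 245 CPM with TGF-β. Untreated control cells were highest and the treated libraries labelled knockout lowest, with no overlap with any other group, while the remaining pair of groups overlapped. *Gclm* (chr3:121948475-121972902, plus strand) encodes the modifier subunit of the same enzyme, which raises its affinity for glutamate. It was at 226 and 200 CPM in untreated control cells, 239 and 348 CPM in control cells with TGF-β and, under the knockout label, 174 and 163 CPM without and 244 and 176 CPM with TGF-β. The untreated libraries labelled knockout were the lowest, 1 treated library of that genotype lay just above them, and the treated groups overlapped.

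*Slc7a11* (chr3:50168858-50247535, minus strand) encodes the transport subunit of the cystine/glutamate exchanger, which brings in the cystine from which the cysteine of glutathione is made. Its level was 31.7 and 26.9 CPM in untreated control cells, 45.1 and 34.4 CPM in control cells with TGF-β and, under the knockout label, 15.4 and 10.4 CPM without and 27.3 and 27.7 CPM with TGF-β. The untreated libraries labelled knockout were below all others and the treated control libraries above all others, and the treated libraries labelled knockout fell within the range of untreated control cells. Among the genes tested here it had the widest range of group means, 1.62 on the log2 scale, and *Srxn1* the narrowest, 0.57.

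*Srxn1* (chr2:151931252-151937112, plus strand) encodes sulfiredoxin, which restores overoxidized peroxiredoxins. It was at 82.6 and 69.0 CPM in untreated control cells, 118 and 94.0 CPM in control cells with TGF-β and, under the knockout label, 74.5 and 67.3 CPM without and 85.9 and 99.4 CPM with TGF-β. All 4 treated libraries were above all 4 untreated libraries, whereas genotypes overlapped within each treatment. *Txnrd1* (chr10:82296696-82360469, plus strand), the cytosolic thioredoxin reductase, was at 323 and 264 CPM in untreated control cells, 404 and 310 CPM in control cells with TGF-β and, under the knockout label, 219 and 236 CPM without and 241 and 285 CPM with TGF-β. The untreated libraries labelled knockout were the lowest, and treated and untreated control cells overlapped.

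*Hmox1* (chr8:77617490-77624495, plus strand) encodes heme oxygenase, which opens the heme ring to biliverdin, carbon monoxide and iron. It was at 117 and 88.1 CPM in untreated control cells, 158 and 87.9 CPM in control cells with TGF-β and, under the knockout label, 126 and 105 CPM without and 172 and 363 CPM with TGF-β. The treated libraries labelled knockout were above all others, and the 3 other groups overlapped. *Nqo1* (chr8:109912125-109927106, minus strand), a quinone reductase widely used as a readout of NRF2, was nearly undetected, with 11 and 4 counts in untreated control cells, 1 and 11 in control cells with TGF-β and, under the knockout label, 2 and 1 without and 1 and 0 with TGF-β. These counts did not pass the filter, so *Nqo1* has no value in the comparisons. It was tested only under settings that kept it, DESeq2, no filter or the omission of a library, and was called in 1 of 50 such tests, lower between treated genotypes without replicate 1 of the treated control cells (adjusted p = 0.0420), while DESeq2 gave it no adjusted p in 4 of these tests.

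**Figure D2:**
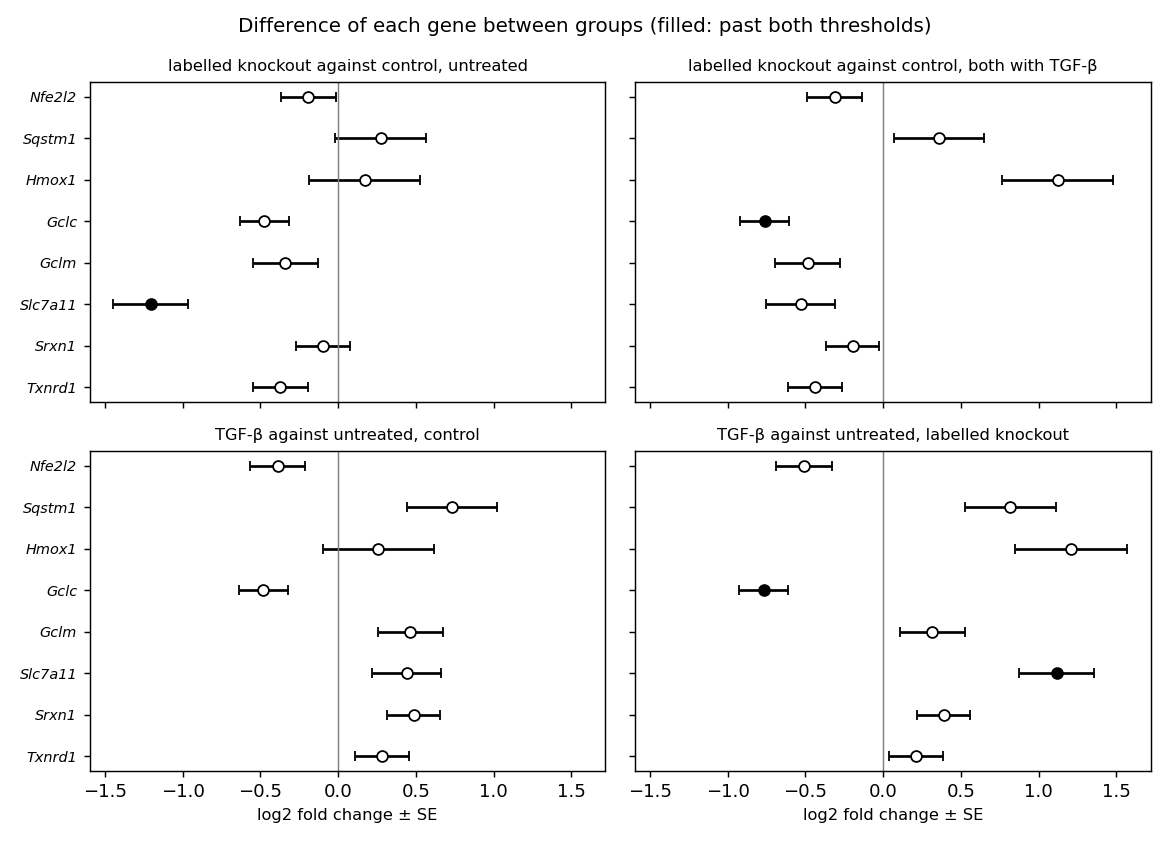
Log2 fold change of the 8 tested genes (points, with bars of 1 SE from edgeR's fit to all 8 libraries) between genotypes above and between treatments below, with filled points where the adjusted p was under 0.05 and the absolute log2 fold change over 0.5. In both lower panels *Nfe2l2* and *Gclc* lie left of 0 and the other 6 genes right of it, and 4 points of the 32 are filled.

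The first question was how the set stood after 2 h of TGF-β in control cells. No tested gene of the set passed both thresholds of edgeR's quasi-likelihood test, an adjusted p under 0.05 and an absolute log2 fold change over 0.5, whereas 4.69% of all 13028 genes tested were called higher and 4.47% lower. At an unadjusted p under 0.05 there were 3 genes, *Srxn1*, *Sqstm1* and *Gclc*, against 3491 of all 13028 genes tested. DESeq2 called 0 genes of the set. The signs were split by gene: 6 were above 0 and 2 below, with a median of 0.36 against 0.016 over all genes tested. The values above 0 were led by *Sqstm1* with a log2 fold change of 0.73 ± 0.29 (SE; adjusted p = 0.144), then *Srxn1* with 0.49, *Gclm* with 0.46, *Slc7a11* with 0.44, *Txnrd1* with 0.28 and *Hmox1* with 0.26. *Gclc* stood at -0.48 ± 0.16 (SE; adjusted p = 0.0878) and *Nfe2l2* at -0.39 ± 0.18 (SE; adjusted p = 0.196). The sign of *Hmox1* turned to -0.24 without replicate 1 of the treated control cells, and *Sqstm1* passed the thresholds with no filter on low counts, at 0.73. Without replicate 1 of the treated control cells *Sqstm1* was at 0.34, below *Gclm* at 0.69, so the order of these values depended on that library. The epithelial keratins moved in the same libraries, *Krt8* being called higher at 0.65 and *Krt18* at 0.96, in 7 and 8 of 14 alternative settings, and their part in the values of the set was not tested.

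The 8 lists of further NRF2-linked genes had 6 called of 79 tested in that comparison, 7.59%, a share near the 9.16% of all genes tested. Among the regulators of NRF2, 11 of 12 were tested, and 1 was called higher and 1 lower. *Bach1*, the repressor at antioxidant response elements, rose from 39.8 and 40.9 CPM to 80.0 and 66.6 CPM, a log2 fold change of 0.86 ± 0.18 (SE; adjusted p = 0.0225). *Keap1*, the adaptor that delivers NRF2 to degradation, fell from 79.4 and 64.8 CPM to 49.1 and 29.5 CPM, a log2 fold change of -0.87 ± 0.23 (SE; adjusted p = 0.0480). The *Keap1* call held in 7 of 14 alternative settings, with log2 fold changes of -1.30 to -0.55, and the *Bach1* call in 10 of 14, and *Keap1* is overlapped by *Gm16754* on the opposite strand. Of the 8 thioredoxin and peroxide genes, *Sesn2*, a stress-induced sestrin, fell by 1.75 in log2 (SE 0.20; adjusted p = 0.00175), from 43.1 and 34.8 CPM to 11.1 and 12.1 CPM, and was called in all 14 alternative settings. *Abcc3*, an exporter of conjugates, was the 1 gene called lower of 17 tested glutathione genes, at -0.72, and *Ugdh* and *Akr1b8* were the genes called higher of 13 tested detoxification genes, at 0.82 and 0.54. The *Abcc3* and *Ugdh* calls held in 11 and 10 of 14 alternative settings, and that of *Akr1b8* in 4. The autophagy partners of *Sqstm1* had 0 called genes, with 8 of 8 above 0 and a median of 0.32, and the ATF4 targets that share cystine uptake had 0 of 7 called, with 5 above 0, 2 below, *Ddit3* at -1.01 and *Chac1* at -0.68, and a median of 0.58. In the lists for NADPH supply and for heme and iron, 0 of 6 and 0 of 9 tested genes were called.

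In the libraries labelled knockout, TGF-β was accompanied by a rise of *Slc7a11* and a fall of *Gclc*. These were 1 gene of 8 in each direction, against 4.25% of all genes tested called higher and 2.57% lower. *Slc7a11* rose 2.17-fold, a log2 fold change of 1.11 ± 0.24 (SE; adjusted p = 0.0251), and was higher in both treated libraries than in both untreated ones. *Gclc* fell by 0.77 in log2 (SE 0.16; adjusted p = 0.0217), again with no overlap. *Hmox1* was at 1.21 ± 0.36 (SE) with an adjusted p of 0.0800 and *Sqstm1* at 0.82 ± 0.29 (SE) with an adjusted p of 0.135, so that neither passed edgeR's test, although DESeq2 called both at 1.22 and 0.83. Without replicate 2 of the treated libraries they were at 0.60 and 0.35, and without replicate 1 they were called at 1.67 and 1.21. *Nfe2l2* stood at -0.51, and *Srxn1*, *Gclm* and *Txnrd1* at 0.39, 0.32 and 0.21, none of them past the thresholds. At an unadjusted p under 0.05 there were 6 genes, all but *Gclm* and *Txnrd1*, against 2956 of all 13028 genes tested. The median of the 8 genes was 0.35, against 0 over all genes tested. The calls of *Slc7a11* and of *Gclc* were both lost when any of the 4 libraries of this comparison was left out, with log2 fold changes of 0.84 to 1.41 and of -0.87 to -0.64. None of the 5 epithelial markers tested was called here, though *Krt8* at 0.58, *Cdh1* at 0.52 and *Cldn4*, which went from 0 counts in both libraries to 30 and 162, had an unadjusted p under 0.05, with *Krt18* at 0.48 and *Krt7* at -1.18, and their part in the values of the set was not tested.

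*Slc3a2*, the partner chain that carries SLC7A11 to the membrane, was at 0.30 in log2 after TGF-β in control cells, without a call. In the libraries labelled knockout it rose as well. It went from 304 and 268 CPM to 415 and 490 CPM, a log2 fold change of 0.66 ± 0.14 (SE; adjusted p = 0.0250), and was the 1 gene called of 17 tested glutathione genes. *Bach1* was higher here too, at 0.98 ± 0.18 (SE; adjusted p = 0.0150), and was the 1 regulator called of 11. *Sesn2* fell by 0.91, the 1 gene called among thioredoxin and peroxide genes, and *Ugdh*, which makes the sugar acid used in glucuronidation, rose by 0.73, the 1 gene called among detoxification genes. The other 4 lists had 0 called genes, among them the autophagy partners with 8 of 8 above 0. *Keap1* was at -0.41 in this comparison and was not called, with 68 and 66 CPM without and 55 and 46 CPM with TGF-β. Its interaction of genotype and TGF-β, at 0.46, was not called either, so no difference from its fall in control cells was found. The *Slc3a2* and *Bach1* calls each held in 11 of 14 alternative settings, and were lost without either untreated library labelled knockout or without replicate 2 of the treated ones. The *Sesn2* call held in 10 of 14 and that of *Ugdh* in 7. In all, the 8 lists had 4 called of 79 tested genes, 5.06%, against 6.82% of all genes tested.

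The responses of the genotypes were set against each other with the interaction of genotype and TGF-β. Of the 8 genes 0 were called by edgeR's adjusted p, as were 0% of all genes tested, and 0 of the 8 had an unadjusted p under 0.05. Over all genes 1134 had an unadjusted p under 0.05, and DESeq2 called 31 genes and none of the set. The largest values in the set were 0.95 ± 0.50 (SE) for *Hmox1* and 0.67 ± 0.33 (SE) for *Slc7a11*, with adjusted p of 0.624 and 0.599, and their 95% intervals of -0.18 to 2.08 and -0.06 to 1.40 included 0. Over the omissions of a library they ranged from 0.35 to 1.47 and from 0.40 to 0.97. A call of *Slc7a11* after TGF-β in the libraries labelled knockout and none in control cells is therefore no tested difference between genotypes. With no filter on low counts, *Hmox1* was called at 1.01.

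Between untreated genotypes, 2 of the 8 genes had an unadjusted p under 0.05, *Slc7a11* and *Gclc*, against 1936 of all 13028 genes tested. *Slc7a11* was the 1 gene of the 8 called. It was 2.31-fold lower in the libraries labelled knockout, with a log2 fold change of -1.20 ± 0.24 (SE; adjusted p = 0.0417), with both libraries below both control libraries. No gene of the set was called higher, and the shares called over all genes tested were 1.03% higher and 0.798% lower. *Gclc* was at -0.47 ± 0.16 (SE; adjusted p = 0.193), *Txnrd1* at -0.37, *Gclm* at -0.34, *Nfe2l2* at -0.19 and *Srxn1* at -0.10, while *Sqstm1* and *Hmox1* were at 0.27 and 0.17. The median of the 8 was -0.27, against 0.018 over all genes tested. The comparisons share groups, and the low untreated *Slc7a11* libraries labelled knockout enter both this comparison and that of TGF-β in the same genotype. The *Slc7a11* call was lost in 6 of the 8 omissions of a library, those of either untreated control library and of any library labelled knockout, and held without either treated control library, with log2 fold changes of -1.50 to -0.93 over the 8 omissions. Of the other lists, detoxification genes had 2 called higher of 13 tested, *Akr1c13* at 1.03 and the microsomal epoxide hydrolase *Ephx1* at 0.94, and the other 7 lists had 0 called genes. These calls held in 8 and 10 of 14 alternative settings, and 2 of 79 tested genes, 2.53%, is near the 1.83% called of all genes tested.

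*Slc7a11* and *Gclm* lie on chromosome 3, where the 641 genes tested had a median log2 fold change of -0.35 between untreated genotypes and -0.34 between treated ones, against 0.018 and -0.012 over all genes tested. *Gclm* was near that median in the untreated comparison, whereas *Slc7a11* was below the 10th percentile of the chromosome, which was -0.86. Between treated genotypes *Slc7a11* at -0.53 and *Gclm* at -0.49 both lay between the chromosome's median and its 10th percentile of -1.12. The part of the chromosome in these values was not tested. *Gclc* lies on chromosome 9, whose 727 genes had medians of 0.071 and 0.013. *Hmox1*, *Nqo1* and the marker *Cdh1* lie on chromosome 8, whose 695 genes had medians of 0.18 and 0.17, so that *Hmox1* was near the median of its chromosome between untreated genotypes and above it between treated ones. Chromosomes 2, 10 and 11, which hold the other genes of the set, had medians between 0.020 and 0.095.

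After TGF-β, 5 of the 8 genes had an unadjusted p under 0.05 between genotypes, against 4086 of all 13028 genes tested. These 5 were *Gclc*, *Hmox1*, *Txnrd1*, *Slc7a11* and *Gclm*. *Gclc* was the 1 gene of the 8 called. It was 1.70-fold lower in the libraries labelled knockout, with a log2 fold change of -0.76 ± 0.16 (SE; adjusted p = 0.0144), with both libraries below both control libraries. Over all genes tested, 8.47% were called higher and 6.57% lower in this comparison, more than between untreated genotypes in the fit to all libraries, whereas fits of each comparison's own libraries called 410 genes here and 804 there. *Hmox1* was at 1.12 ± 0.36 (SE) and missed the threshold with an adjusted p of 0.0632. *Slc7a11* stood at -0.53 ± 0.22 (SE; adjusted p = 0.134), *Gclm* at -0.49, *Txnrd1* at -0.44, *Nfe2l2* at -0.31 and *Srxn1* at -0.20, and *Sqstm1* at 0.36. The median of the 8 was -0.38, against -0.012 over all genes tested. The *Gclc* call was lost without replicate 1 or replicate 2 of the treated libraries labelled knockout, at -0.76 and -0.74, and in a fit of the 4 libraries of the comparison alone. *Hmox1* was called by DESeq2 at 1.13, with no filter at 1.15, and at 1.62 and 1.57 without replicate 1 of the treated control cells or of the treated libraries labelled knockout. Without replicate 2 of the treated libraries labelled knockout, *Hmox1* fell to 0.49 (adjusted p = 0.419) and *Sqstm1* turned to -0.13, and without replicate 2 of the treated control cells *Hmox1* was at 0.76. Of the 5 epithelial markers tested, 3 were above 0 and 2 below, with *Cdh1* called higher at 0.61, in 7 of 14 alternative settings, and *Krt8*, *Krt18* and *Cldn4* at 0.14, -0.39 and 0.21 without a call, and *Krt7*, with 4 to 14 counts per library, below 0 and not called. The part of these markers in the values of the set was not tested.

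Of the 8 lists of NRF2-linked genes, 11 of 79 tested genes were called between the treated genotypes, 6 higher and 5 lower. This share of 13.9% is near the 15.0% called of all genes tested. *Cth*, which makes cysteine from cystathionine, was 4.00-fold lower in the libraries labelled knockout, at 5.62 and 5.01 CPM against 19.9 and 22.7 CPM in control cells (log2 fold change -2.00 ± 0.30, SE; adjusted p = 0.00408). It was the 1 gene called of 7 ATF4 targets. *Gstm1*, a glutathione transferase, was lower at -1.14 and *Abcc3* higher at 1.07, the 2 genes called of 17 glutathione genes. *Sesn2* was higher at 1.16 and the peroxiredoxin gene *Prdx1* lower at -0.56, of 8 thioredoxin and peroxide genes. Among 11 regulators the related factor *Nfe2l1* was higher at 0.77, and *Nfe2l3* was lower, with 3 and 4 counts under the knockout label against 32 and 14 under the control label. Of 13 detoxification genes, *Aldh3a1* and *Ephx1* were higher at 0.89 and 0.70 and *Adh7* lower at -0.66, and of 8 autophagy partners *Map1lc3b* was higher at 0.54. The lists for NADPH supply and for heme and iron had 0 called genes. *Cth*, *Gstm1* and *Adh7* lie on chromosome 3, whose 10th percentile was -1.12 here, with *Cth* and *Gstm1* below it and *Adh7* above, and the part of the chromosome in their values was not tested. *Cth* and *Abcc3* were called in all 14 alternative settings and *Prdx1* in 4. Every other gene named here lost its call without at least 1 treated library labelled knockout and in a fit of the comparison's own libraries. *Gstm1* and *Sesn2* held in 12 settings, *Ephx1* in 11, *Nfe2l1*, *Aldh3a1* and *Map1lc3b* in 8 and *Adh7* in 6. *Nfe2l3* held in 6 of 13 and was lost with DESeq2. Between untreated genotypes each of the 11 called genes had the same sign, and *Ephx1* alone of them was called. *Cth* was there at -1.19, *Gstm1* at -1.11, *Aldh3a1* at 1.03 and *Adh7* at -0.67, so these differences were not limited to the treated libraries. *Abcc3*, *Sesn2*, *Nfe2l1* and *Map1lc3b* were there at 0.35, 0.32, 0.32 and 0.45, and *Prdx1* at -0.22. Genes of the *Gstm*, *Gsta* and *Akr* families have near-identical copies, and *Prdx1* and *Map1lc3b* may share reads with copies as well, so their counts are uncertain.

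The subunits of glutamate-cysteine ligase were set side by side within each library, where scaling between libraries cancels. The ratio of *Gclm* to *Gclc*, per kilobase of merged exons, was 0.232 and 0.260 in untreated control cells, 0.407 and 0.525 in control cells with TGF-β and, under the knockout label, 0.256 and 0.282 without and 0.659 and 0.478 with TGF-β. All 4 treated libraries were above all 4 untreated ones, and genotypes overlapped within each treatment. The ratio was formed after the values of both genes were seen and was not tested. *Gm17494*, which overlaps *Gclm* on the other strand, had at most 1 count in any library.

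Over the 8 libraries, the genes of the set did not vary as a block. As a description of log2 CPM, with groups and depth shared by the points, the Pearson correlation was highest for *Hmox1* and *Sqstm1* (r = 0.903, Spearman's rho = 0.810, n = 8 libraries), followed by *Nfe2l2* and *Gclc* (r = 0.831, rho = 0.857) and by *Txnrd1* and *Slc7a11* (r = 0.818, rho = 0.929). It was lowest for *Hmox1* and *Gclc* (r = -0.745, rho = -0.619), followed by *Gclc* and *Sqstm1* (r = -0.709, rho = -0.762). *Nfe2l2* was on the negative side of *Sqstm1* (r = -0.480), *Hmox1* (r = -0.453) and *Srxn1* (r = -0.389). *Gclm* and *Gclc* were nearly unrelated, with r = 0.125. In all, 28 pairs were computed.

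Outside the set, the genes whose log2 CPM was most like that of *Nfe2l2* over the 8 libraries, among 13020 genes, were *Pla2g4c* (r = 0.954), *Rpp38* (0.949), *Ankrd27* (0.942), *Nop56* (0.930) and *Rrp1b* (0.920). *Pla2g4c* had 2.20 CPM at most, close to the limit of detection. For *Slc7a11* they were *Rab33b* (r = 0.974), *Mical2* (0.968), *Bap1* (0.968), *Bnc1* (0.967) and *Cdc42se2* (0.967). With 8 points in 4 groups, 52 genes had an r above 0.9 with *Slc7a11* and 12 with *Nfe2l2*.

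Since several of these genes lay on the same side of 0 after TGF-β, their promoters were searched for the core of the antioxidant response element and for the AP-1 heptamer that can overlap it. RefSeq windows of the GRCm38.p6 build, from 250 bases before to 50 after a start, were found for 7 of the 9 genes, with 9 windows in all, 3 of them for *Txnrd1*, while *Hmox1* and *Gclc* were not matched. The core TGACNNNGC, on either strand, was in 4 of the 9 windows, 1 each for *Nfe2l2*, *Gclm*, *Srxn1* and *Txnrd1*, and in 12.4% of 32851 windows of all genes. The heptamer TGAGTCA, which reads TGACTCA on the other strand, was in the *Srxn1* window alone, in 2 places, and in 5.20% of all windows. The stretches before the start are shown on the strand of the gene with the matches in capitals, so that each match can be read in its place. In *Nfe2l2* the match began 240 bases before the start (chr2:75704885-75704913, minus strand), in *Gclm* 134 bases (chr3:122245413-122245441, plus strand) and in *Txnrd1* 92 bases (chr10:82859104-82859132, plus strand), the last 2 on the opposite strand of the gene. In *Srxn1* the heptamers began 102 and 45 bases before the start (chr2:152105412-152105495, plus strand), and the core began 28 bases after it. The heptamer 45 bases before the start is followed by GC. With these bases it differs from the searched core only in G for C, and it was not counted as a core.
Nfe2l2: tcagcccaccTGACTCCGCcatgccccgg
Gclm: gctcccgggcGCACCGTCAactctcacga
Txnrd1: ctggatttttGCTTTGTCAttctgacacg
Srxn1: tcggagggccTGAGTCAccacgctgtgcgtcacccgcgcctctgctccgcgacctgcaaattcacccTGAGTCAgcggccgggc
A match describes the letters in these windows and not binding, and the windows of *Slc7a11*, *Sqstm1* and *Nqo1* held none of these letters. The search could not find variants of the core or elements outside the windows, so a missing match does not set these genes apart.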

How the data were processed

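The values used were raw counts per gene, deposited by the authors as 1 table with a column for each of the 8 libraries. The submitters' processing notes name HISAT2, limma and mm10, whereas the paper's methods name subjunc, mm10 and mm9, removal of duplicates and DESeq2. Kit, sequencer and read layout also differ between labels and paper. How reads were assigned to genes, and whether by strand, is not given in the sources used here, so overlapping genes on opposite strands have uncertain counts. All 37310 identifiers matched GENCODE vM1 on NCBIM37, which gave symbols, coordinates and merged exon lengths. TMM factors, filterByExpr over the 4 groups (13028 genes kept) and the quasi-likelihood test of edgeR 4.0.16 in R 4.3.3 were applied to all 8 libraries with a term per group and Benjamini-Hochberg adjustment over all genes kept. The SE of a log2 fold change is its size divided by the square root of F. The fit had 4 residual and 5.50 prior degrees of freedom. Named were the 9 genes, the targeted gene, the called genes of 8 lists of NRF2-linked genes (at most 4 per direction), a few others of these lists picked by their values, markers of cell types and the 5 genes most correlated with *Nfe2l2* and *Slc7a11*. The genes and the lists were chosen with earlier results of these data known. DESeq2 1.42.0, RLE factors, other filters, a replicate block, a fit of each comparison's own libraries, no fold change threshold and omission of each library were the alternatives.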

Additional observations from a re-analysis of the deposited data

How the results depend on the processing

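For the 8 tested genes in 5 comparisons, 40 log2 fold changes were recomputed under 552 combinations with an alternative setting. Of these, 503 kept direction and side of the threshold, 17 lost a call, 15 gained 1 and 17 turned in sign. All turns came from leaving out 1 library, and none concerned a called gene. Over the 8 omissions the interaction ranged from -0.37 to 0.17 for *Gclm*, -0.37 to 0.15 for *Nfe2l2*, -0.38 to 0.50 for *Sqstm1*, -0.23 to 0.12 for *Srxn1* and -0.22 to 0.18 for *Txnrd1*. The TGF-β response of *Hmox1* in control cells ranged from -0.24 to 0.62. Between untreated genotypes *Hmox1* ranged from -0.021 to 0.39 and *Srxn1* from -0.22 to 0.033, and between treated genotypes *Sqstm1* ranged from -0.13 to 0.75.

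Genes of the set called numbered 1 between untreated genotypes (0 to 1 over the omissions), 1 between treated genotypes (0 to 4 over the omissions, 2 with DESeq2 or no filter, 0 with the comparison's own libraries), 0 after TGF-β in control cells (1 with no filter), 2 after TGF-β in the libraries labelled knockout (0 to 3 over the omissions, 4 with DESeq2 or no filter) and 0 for the interaction (1 with no filter). Over all genes, 238 were called between untreated genotypes (42 to 390 over the omissions, 401 with DESeq2, 756 with no filter, 804 with own libraries), 1959 between treated genotypes (477 to 2762, and 410 with own libraries), 1194 after TGF-β in control cells (145 to 1484, 2021 with no filter, 470 with own libraries), 889 after TGF-β in the libraries labelled knockout (136 to 1381, 1832 with no filter) and 0 for the interaction (0 to 6, 31 with DESeq2, 211 with no filter). Omitting a library leaves a group of 1, which is assumed to vary like the other groups. The cause of the other shifts was not tested. The 4 genes called between treated genotypes without replicate 1 of the treated control cells were *Hmox1*, *Gclm*, *Gclc* and *Nqo1*, which has at most 11 counts in a library.

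The replicate numbers are shared by all groups, but same-numbered libraries did not deviate together throughout: the correlation of deviations over genes was 0.098 and -0.473 between genotypes, untreated and treated, and 0.297 and -0.00916 between treatments. With the replicate block the genes of the set called were 1, 1, 0, 2 and 0 in the same order of comparisons, and the genes called 150, 1490, 831, 676 and 0. Of the list genes the report names, *Prdx1* between treated genotypes, *Akr1b8* and *Krt8* after TGF-β in control cells and *Ugdh* after TGF-β in the libraries labelled knockout had no call with the block. As an alternative chosen after seeing the data, the block was also fitted with replicates 1 and 2 of the treated knockout label exchanged. Between treated genotypes 2809 genes were then called, against 1490 with the block as labelled. Of the set 2 were called, *Hmox1* higher and *Gclc* lower. The exchange pairs treated libraries that deviated alike, so less residual spread was built into this fit. No conclusion is therefore drawn from its counts or from its *Hmox1* call.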

Other observations

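In the treated groups, *Hmox1* and *Sqstm1* were higher in replicate 1 of the control cells and in replicate 2 of the libraries labelled knockout. Among the tested epithelial markers, *Cdh1* was higher in replicate 2 of both groups. *Krt8*, *Krt18*, *Cldn4* and, at few counts, *Krt7* had the order of *Hmox1*. Of the 79 tested genes of the 8 lists, 30 had this order, 26 the reverse and 23 neither, so the order was not shared by the lists as a whole. Opposite deviations of same-numbered treated libraries were not limited to these genes, with a correlation of -0.473 over the 13028 genes tested. The genes that follow were chosen after their values were seen. The small MAF gene *Maff* was at 114 and 19.4 CPM in control cells with TGF-β and at 20.4 and 113 CPM in the libraries labelled knockout with TGF-β, against 15.9 to 21.7 CPM in the untreated libraries. *Mafk* was at 43.8 and 16.7 CPM and at 29.6 and 65.8 CPM in these groups, and the stress-responsive factor *Atf3* at 77.8 and 36.7 CPM and at 19.7 and 80.3 CPM. *Osgin1*, a further NRF2-linked gene, was at 10.6 and 2.65 CPM and at 7.58 and 28.9 CPM, against 19.6 to 35.2 CPM in the untreated libraries. On the log2 scale the treated replicates differed more from each other in these 4 genes than the untreated ones of the same genotype did, and what set them apart was not tested. The reverse order was seen in *Txnip*, at 6.28 and 18.4 CPM in control cells with TGF-β and at 11.3 and 1.83 CPM under the knockout label, and in the iron genes *Slc40a1* and *Tfrc*.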
